A study of Homo sapiens with 16 samples.

Results

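The genes described here make, recycle and interconvert purine and pyrimidine nucleotides, or form the pentose phosphate route that supplies their ribose. They were chosen by name, as 38 enzymes of nucleotide synthesis, nucleotide salvage and the pentose phosphate pathway. No filter on their measured levels was used, but earlier results of these data were known. All 38 were among the 43388 genes of the deposited table. ADSS1 and ADSS2 stood in it under their older symbols ADSSL1 and ADSS. The test covered 37 of the 38, since AMPD1 had a mean under 1 scaled TPM, among 16038 genes tested.

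The RNA came from cardiomyocytes differentiated from WTC11, an established human induced pluripotent stem cell line of wild-type genotype (hPSC-CMs), by the GiWi protocol, which switches the Wnt pathway on and then off with small molecules. There were 16 libraries in 4 groups of 4. Day 16 RPMI/B27 was the starting point, and cells of that stage were then kept until Day 30 in standard RPMI/B27, in RPMI_glcM/B27, which is RPMI/B27 with 5 mM glucose, or in HPLM/B27. HPLM, human plasma-like medium, holds 5 mM glucose too, which is less than in standard RPMI, and further metabolites of plasma. Ions such as calcium and amino acids also stand at other levels in HPLM than in RPMI. All 4 groups received the B27 supplement, and each library came from 1 well. The labels number 4 biological replicates per group, whereas the deposited design text counts 3 wells per medium. The labels name no differentiations, and the paper describes an RNA-seq result on the Day 30 media as coming from 1 differentiation. There was also 1 cell line, so p-values measure only the spread between wells.

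Cells obtain purine nucleotides in 2 ways. De novo synthesis starts from phosphoribosyl pyrophosphate (PRPP) and builds the ring on it to give inosine monophosphate (IMP), from which AMP and GMP branch. Salvage attaches PRPP or phosphate to free bases and nucleosides. Pyrimidines are built as a ring first and salvaged from uridine and cytidine, and the ribose of all of them comes from the pentose phosphate pathway. Among the metabolites of HPLM are hypoxanthine, a substrate of the salvage enzyme HPRT1, and uridine, a substrate of UCK1, UCK2 and UPP1. In heart and skeletal muscle, AMP deaminase, adenylosuccinate synthase and adenylosuccinate lyase form the purine nucleotide cycle, which turns AMP into IMP and back.

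Levels are given as scaled TPM, the deposited TPM (transcripts scaled to a fixed total per library, a level per gene length) divided by a factor for each library. The factors were 0.720 to 1.33. The mitochondrial rRNA RNR2 accounted for 41.0% to 48.3% of all TPM, and the small nuclear RN7SK for 8.76% to 13.8%. Whole reads recovered from the TPM came to 4914950 to 9977701 per library over 31044 genes. Levels of the second mitochondrial rRNA, RNR1, lay between 49.5 and 29276 TPM and peaked in Day 30 RPMI/B27 replicates 3 and 4, whose scaling factors were 0.779 and 0.720 against 1.15 and 1.18 in the other 2 replicates of that medium. RNR1 was uneven in the other groups too. Day 16 replicate 4 held 3793 TPM, and RPMI_glcM/B27 replicates 3 and 4 held 4872 and 6806. HPLM/B27 replicates 1 and 4 held 6359 and 5889, and the remaining libraries of these groups 49.5 to 355. The cardiomyocyte label was met by the markers, with 1770 to 8646 scaled TPM of TNNT2 and 606 to 1094 of ACTN2. POU5F1 and NANOG, which mark pluripotent cells, did not exceed 0.1498 and 0.0603 scaled TPM, and LIN28A reached 3.41. Of the endothelial markers, PECAM1, CDH5, VWF and TEK stayed under 1 scaled TPM, while KDR was at 16.4 to 45.2. Of the smooth muscle markers, MYH11 was at 0 in every library, while ACTA2 was at 81.6 to 570, CNN1 at 83.8 to 409 and TAGLN at 20.4 to 166 scaled TPM. Hepatic endoderm genes were present, AFP at 31.1 to 492 and ALB at 10.5 to 270 scaled TPM. In such bulk samples, fewer cells of a type and less RNA per cell cannot be told apart.

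Most members were well measured. The mean over all libraries was at least 5 scaled TPM for 26 members and at least 20 for 11, and 5 members had a median under 20 reads per library. The dehydrogenase PGD stood highest, at 95.04 to 142 scaled TPM in single libraries. IMPDH2, which commits IMP to GMP, ranged from 55.6 to 83.0 scaled TPM and did not separate from TALDO1, the transaldolase, at 38.4 to 66.4, nor did TALDO1 separate from PAICS at 36.9 to 58.5. At the other end, AMPD1, the AMP deaminase of skeletal muscle, had 0 to 2 reads per library, and in Day 30 RPMI/B27 it was listed at 0 in all 4 libraries.

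**Figure D1:**
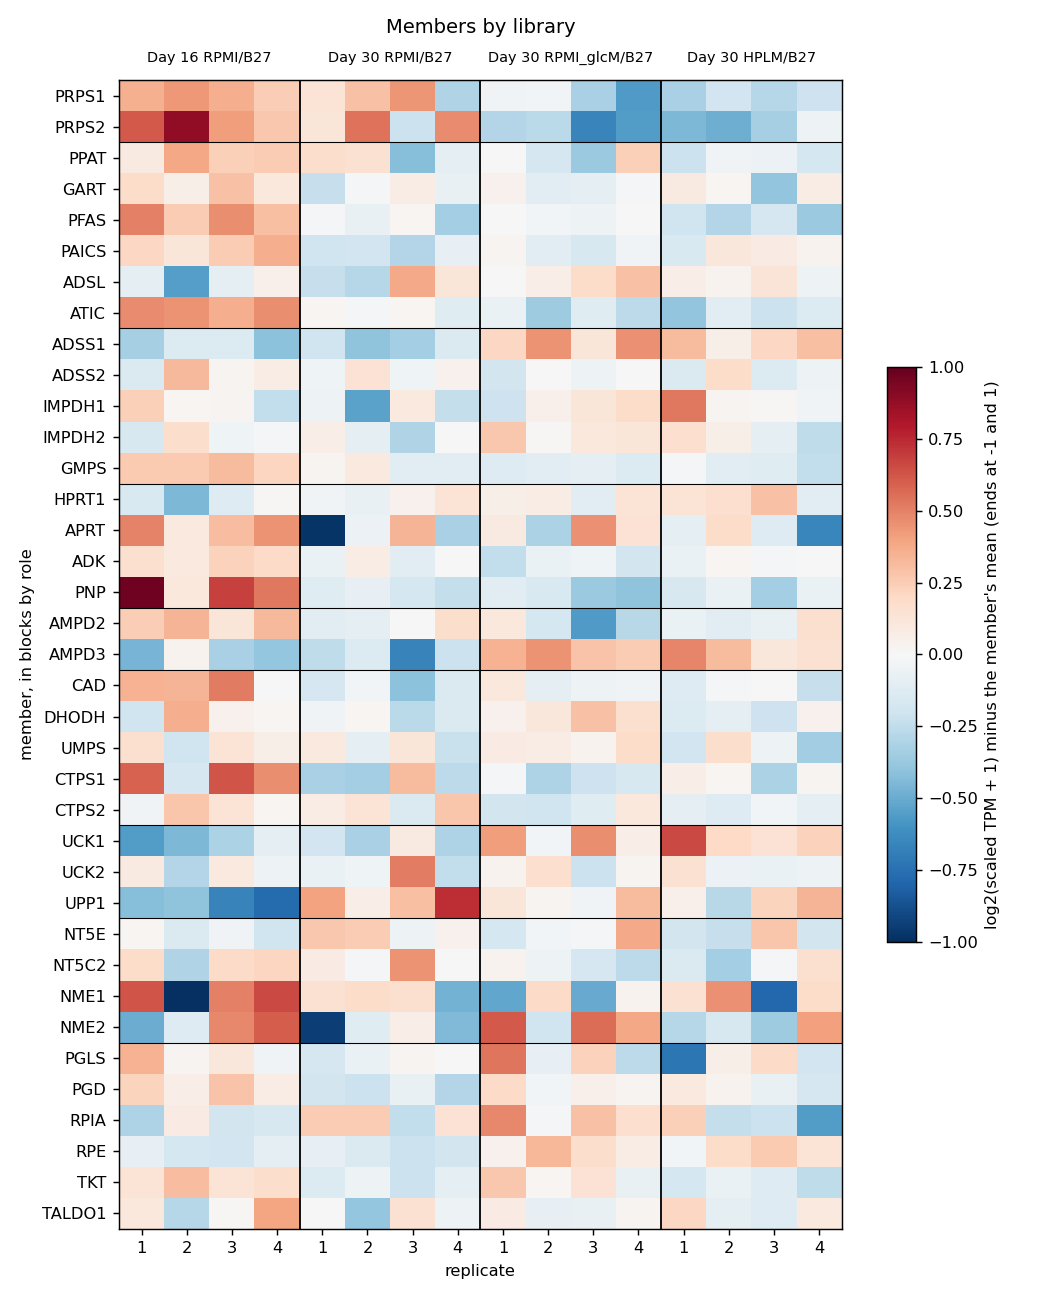
Level of each of the 37 members tested in each of the 16 libraries. Columns are libraries by group and replicate, rows are members in blocks by role, and colour is log2(scaled TPM + 1) minus that member's mean over all libraries, with colours ending at -1 and 1. ATIC and PFAS are red in the 4 Day 16 columns and pale or blue after them, and ADSS1 and AMPD3 are red only in the 8 columns of RPMI_glcM/B27 and HPLM/B27 apart from 1 faintly red Day 16 value of AMPD3.

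The first comparisons ask what changed between Day 16 and Day 30 in each medium. They share the Day 16 libraries, so they are given side by side and not as independent of each other. Purine ring enzymes PFAS, PAICS and ATIC, the GMP synthetase GMPS, the salvage enzymes ADK and PNP and the pyrimidine enzyme CAD were lower at Day 30 in all 3 media, and the uridine phosphorylase UPP1 was higher in all 3. In Day 30 RPMI/B27, 1 member of 37 rose and 9 fell, where 8.82% of all genes tested rose and 8.74% fell. In RPMI_glcM/B27, 5 rose and 11 fell, against 14.1% and 13.6% of all genes. In HPLM/B27, 6 rose and 10 fell, against 13.4% and 11.8%. The median log2 fold change of the members was -0.19, -0.10 and -0.19 in these 3 comparisons, whereas that of all genes tested was 0.01, 0.02 and 0.01.

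Apart from that of UPP1 in RPMI/B27, no higher call against Day 16 passed with TPM as deposited. A second rescaling left out the abundant mitochondrial, ribosomal, 7SK and 7SL RNA genes. With it, ADSS1, UCK1 and UPP1 still passed in RPMI_glcM/B27 and HPLM/B27, and AMPD3 in RPMI_glcM/B27. RPE in both media, and AMPD3 and HPRT1 in HPLM/B27, did not. Lower calls outnumbered higher ones in each medium with scaled TPM, with TPM as deposited and with limma-voom, which also used median-of-ratios factors. With TPM as deposited, the median of all genes moved to -0.28, -0.22 and -0.29. The members then split into 1 higher and 14 lower in RPMI/B27, with 0 and 11 in RPMI_glcM/B27 and 0 and 18 in HPLM/B27. The shares of all genes called higher and lower were 2.08% and 17.8%, 3.34% and 17.8%, and 3% and 22.4%. At an unadjusted p under 0.05, deposited TPM gave 1 member higher in RPMI_glcM/B27 and 0 in HPLM/B27, and limma-voom gave 6 and 6. In either direction, deposited TPM put 20 and 23 of 37 members under that p, beside 5458 and 6352 of 16122 genes. Limma-voom put 18 and 21 of 35 members under it, beside 6185 and 6108 of 15420 genes. After adjustment, limma-voom on recovered reads called 5 and 6 of 35 members higher, beside 2275 and 2344 of 15420 genes.

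PRPP, the sugar phosphate that de novo nucleotide synthesis and the salvage of free bases use, is made by PRPS1 and PRPS2. PRPS1 held 31.7, 33.5, 31.8 and 29.3 scaled TPM at Day 16, 27.04, 30.3, 33.6 and 19.7 in Day 30 RPMI/B27, with 23.9, 24.0, 19.4 and 16.3 in RPMI_glcM/B27 and 19.4, 21.4, 19.9 and 21.2 in HPLM/B27. All 8 libraries of RPMI_glcM/B27 and HPLM/B27 lay under all Day 16 libraries, while those of RPMI/B27 overlapped with them. PRPS1 fell by 0.59 ± 0.14 (SE) on the log2 scale in RPMI_glcM/B27 (adjusted p = 0.00586) and by 0.60 in HPLM/B27 (adjusted p = 0.00529). In RPMI/B27 its log2 fold change was -0.21, which did not pass (adjusted p = 0.351). PRPS2 was far lower, with 4 to 46 reads per library. It held 2.65, 3.404, 2.19 and 1.87 scaled TPM at Day 16, 0.942, 0.981, 0.510 and 0.616 in RPMI_glcM/B27, and 0.749, 0.698, 0.894 and 1.30 in HPLM/B27. Neither 5 mM medium overlapped with Day 16, and PRPS2 fell by 0.99 (adjusted p = 0.00128) and 0.88 (adjusted p = 0.00319) on the log2 scale, both SE 0.19.

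Of the 6 purine ring enzymes, PFAS, PAICS and ATIC fell in each medium. PFAS, which adds the nitrogen of glutamine early in the route, held 10.4, 8.59, 10.1 and 8.89 scaled TPM at Day 16, 6.92, 6.64, 7.13 and 5.36 in RPMI/B27, with 7.03, 6.87, 6.76 and 7.07 in RPMI_glcM/B27 and 6.02, 5.57, 6.14 and 5.23 in HPLM/B27. No Day 30 library reached the Day 16 range. PFAS fell by 0.49 (adjusted p = 0.00129), 0.40 (adjusted p = 0.00324) and 0.64 (adjusted p = 7.99e-05) on the log2 scale, each SE 0.09. ATIC carries out the last 2 steps to IMP. It held 29.3, 28.9, 27.1 and 29.2 scaled TPM at Day 16, 21.2, 20.6, 21.1 and 19.2 in RPMI/B27, with 19.96, 16.1, 19.1 and 17.2 in RPMI_glcM/B27 and 15.7, 19.4, 17.9 and 18.9 in HPLM/B27. Its Day 16 libraries were close together and stood above every Day 30 library. ATIC fell by 0.46, 0.64 and 0.65 on the log2 scale (SE 0.08), with adjusted p of 0.000671, 2.35e-05 and 2.09e-05.

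PAICS, a bifunctional enzyme of the middle of the route, was the most abundant member of the ring pathway. It held 52.5, 49.5, 54.3 and 58.5 scaled TPM at Day 16 and 39.5, 39.6, 36.9 and 42.9 in RPMI/B27, with 46.2, 42.0, 40.5 and 44.3 in RPMI_glcM/B27 and 40.7, 49.2, 48.0 and 46.6 in HPLM/B27. The highest HPLM/B27 library lay just under the lowest Day 16 library. PAICS fell by 0.43 (adjusted p = 0.000838), 0.31 (adjusted p = 0.0056) and 0.22 (adjusted p = 0.0401) on the log2 scale, SE 0.07. The last of these calls was lost without any of Day 16 replicates 1, 3 and 4 or HPLM/B27 replicates 1, 3 and 4, with adjusted p of 0.0510 to 0.125. PPAT, GART and ADSL did not pass in any medium. PPAT, which takes the first committed step, had means of 13.2 scaled TPM at Day 16 and 10.8, 10.6 and 10.1 at Day 30 (log2 fold changes -0.29, -0.32 and -0.36), and its libraries in HPLM/B27 lay under all those of Day 16. PPAT passed in RPMI_glcM/B27 without replicate 4 of that medium (-0.42, adjusted p = 0.0371). In HPLM/B27 it passed with limma-voom (-0.39, adjusted p = 0.0470), with only both groups in the fit (adjusted p = 0.0147) and with TPM as deposited (-0.69, adjusted p = 0.0330). ADSL, which acts both here and in the purine nucleotide cycle, had means of 28.6, 32.4, 35.2 and 32.9 scaled TPM.

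The genes of PPAT and PAICS face away from each other on chromosome 4 (RefSeq, GRCh38.p14), PPAT on the minus strand at chr4:56393362-56435615 and PAICS on the plus strand, with 136 bases between the PPAT start site and the nearest PAICS start site beyond it. That stretch and the site before ATIC are shown because PAICS and ATIC fell in all 3 media and PPAT shares the first stretch with PAICS. The canonical PAICS start site, used for the motif counts below, lies further on, at chr4:56436260. For ATIC only 30 bases are printed, around the match at -46 from the start site, and another match lies at 30 after it. PAICS also has an annotated start inside PPAT, so the genes overlap on opposite strands (PAICS spans chr4:56410507-56464578), and whether the counting used strand is not given in the sources used here. Both sequences are from the RefSeq promoter table (GRCh38.p14), plus strand. Capitals mark TGACNNNGC, the core of the antioxidant response element, read on the minus strand in the first, and the E-box CACGTG in the second.
PPAT-PAICS, chr4:56435616-56435751: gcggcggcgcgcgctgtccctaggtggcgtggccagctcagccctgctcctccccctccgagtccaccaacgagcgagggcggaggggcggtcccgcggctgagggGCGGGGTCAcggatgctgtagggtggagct
ATIC, chr2:215312001-215312030: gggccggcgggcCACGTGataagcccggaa

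Promoter windows of 250 bases before to 50 after the start site were found for 36 of the 38 members, taking the start site of the GENCODE v44 canonical transcript where the table holds several. CACGTG, which reads the same on both strands, was in 5 of the 36 (13.9%), namely PPAT, ATIC, AMPD2, DHODH and NME1, and in 7.26% of all 35116 windows of the table. TGACNNNGC on either strand was in 6 (16.7%), namely PPAT, ADK, NT5E, NT5C2, PGD and RPE, and in 13.3% of all windows. The GC box GGGCGG on either strand was in 31 (86.1%) and in 45% of all windows. The motifs were searched separately, so matches of different motifs can share bases. ATIC, which fell in 3 media, and DHODH, which did not pass in any, both had an E-box.

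From IMP the route branches. GMPS, which makes GMP, held 27.6, 27.6, 28.7 and 26.7 scaled TPM at Day 16, 23.4, 24.6, 21.1 and 21.2 in RPMI/B27, with 20.9, 21.3, 21.4 and 20.7 in RPMI_glcM/B27 and 22.7, 21.2, 20.9 and 19.1 in HPLM/B27. The Day 30 libraries were all lower than the Day 16 libraries. GMPS fell by 0.28 (adjusted p = 0.00506), 0.38 (adjusted p = 0.00037) and 0.39 (adjusted p = 0.000319) on the log2 scale, SE 0.06. IMPDH1 and IMPDH2, isozymes of the step before GMPS, did not pass in any medium, and IMPDH1 made up a mean of 8.54% to 10.2% of their summed level over the 4 groups. ADSS2, the widely expressed adenylosuccinate synthase of the AMP branch, had means of 14.1, 13.6, 12.7 and 13.0 scaled TPM and did not pass. Its muscle isozyme ADSS1 is described with the media.

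Among the salvage enzymes, PNP showed the largest fall. PNP, which splits inosine and guanosine into base and ribose phosphate, held 5.92, 2.79, 4.69 and 4.11 scaled TPM at Day 16, 2.25, 2.33, 2.14 and 2.00 in RPMI/B27, with 2.27, 2.17, 1.74 and 1.68 in RPMI_glcM/B27 and 2.16, 2.38, 1.79 and 2.38 in HPLM/B27, from 13 to 64 reads. Day 16 replicate 2 was close to the Day 30 range but above it. PNP fell by 0.73 (adjusted p = 0.00388), 0.83 (adjusted p = 0.00088) and 0.73 (adjusted p = 0.00238) on the log2 scale, SE 0.15. ADK, which phosphorylates adenosine, fell by 0.20 (adjusted p = 0.0482), 0.31 (adjusted p = 0.00245) and 0.19 (adjusted p = 0.0448), SE 0.06, from 13.6 ± 0.582 (SD, n = 4) scaled TPM at Day 16 to 11.8 ± 0.740, 10.9 ± 0.802 and 11.9 ± 0.314. ADK passed in 3 of the 10 other settings in RPMI/B27 and in 4 of 9 in HPLM/B27. It did not pass in RPMI/B27 without any of replicates 1, 3 and 4 of either group (log2 fold changes -0.21 to -0.17), nor in HPLM/B27 without any of its 4 replicates or Day 16 replicates 1, 3 and 4 (-0.20 to -0.17).

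HPRT1, which joins hypoxanthine or guanine to PRPP, was higher at Day 30 in HPLM/B27. It held 25.7, 20.7, 26.1 and 28.8 scaled TPM at Day 16, 28.0, 27.2, 29.6 and 31.5 in RPMI/B27, with 29.8, 30.2, 26.5 and 31.6 in RPMI_glcM/B27 and 31.5, 32.4, 35.4 and 26.6 in HPLM/B27. The groups overlapped. In HPLM/B27 it had a log2 fold change of 0.30 ± 0.10 (SE, adjusted p = 0.0374), and this became -0.035 with TPM as deposited (adjusted p = 0.873). The call was also lost without any of replicates 1, 2 and 3 of either group, with adjusted p of 0.0573 to 0.116. APRT, the matching enzyme for adenine, had means of 20.7, 14.0, 17.6 and 14.5 scaled TPM and wide spread, down to 7.63 in Day 30 RPMI/B27 replicate 1. Its fold change did not pass in any medium, and without Day 30 RPMI/B27 replicate 3 it did (log2 fold change -0.79, adjusted p = 0.0280). With TPM as deposited APRT passed in RPMI/B27 (-0.92, adjusted p = 0.0131) and HPLM/B27 (-0.84, adjusted p = 0.0157), and with the rescaling without abundant RNAs in RPMI/B27 (-0.76, adjusted p = 0.0410).

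Of the pyrimidine ring enzymes, CAD fell in all 3 media. CAD is a single protein with the first 3 activities of the route. It held 6.15, 6.11, 7.04 and 4.59 scaled TPM at Day 16, 3.99, 4.52, 3.22 and 4.08 in RPMI/B27, with 5.04, 4.26, 4.42 and 4.48 in RPMI_glcM/B27 and 4.13, 4.55, 4.60 and 3.79 in HPLM/B27. Day 16 replicate 4 overlapped with the libraries of RPMI_glcM/B27 and HPLM/B27. CAD fell by 0.49 (adjusted p = 0.00784), 0.32 (adjusted p = 0.0496) and 0.39 (adjusted p = 0.0187) on the log2 scale, SE 0.11. The call in RPMI_glcM/B27 was made in 0 of 8 other settings and was lost without any of Day 16 replicates 1, 2 and 3 or RPMI_glcM/B27 replicates 2, 3 and 4 (adjusted p 0.0918 to 0.152), and that in HPLM/B27 was lost without Day 16 replicate 3 or HPLM/B27 replicate 4 (0.0570 and 0.0659).

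DHODH and UMPS, which complete the ring and make UMP, did not pass in any comparison. DHODH had means of 3.92, 3.37, 4.22 and 3.395 scaled TPM over the 4 groups, and UMPS 4.78, 4.53, 4.99 and 4.26. CTPS1, which makes CTP from UTP, held 10.7, 5.89, 10.96 and 9.67 scaled TPM at Day 16 and 6.70, 5.24, 5.71 and 5.92 in RPMI_glcM/B27, where it fell by 0.55 ± 0.18 (SE) on the log2 scale (adjusted p = 0.0318). Day 16 replicate 2 lay within the Day 30 range, and without it CTPS1 also passed in RPMI/B27 (log2 fold change -0.71, adjusted p = 0.00465, and -0.69 without RPMI/B27 replicate 3, adjusted p = 0.00942) and HPLM/B27 (-0.61, adjusted p = 0.0083). In RPMI/B27 CTPS1 was at -0.53 (adjusted p = 0.0536), and it passed there in other settings too, among them limma-voom (-0.57, adjusted p = 0.0375) and TPM as deposited (-0.83, adjusted p = 0.00435). The call in RPMI_glcM/B27 was lost without any of Day 16 replicates 1, 3 and 4 or RPMI_glcM/B27 replicates 2, 3 and 4, at adjusted p of 0.0609 to 0.0944. Its isozyme CTPS2 did not pass.

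UPP1 was the member that rose in every medium. It splits uridine into uracil and ribose phosphate, a source of pentose. UPP1 held 7.45, 7.58, 6.17 and 5.67 scaled TPM at Day 16, 14.0, 10.9, 13.0 and 18.0 in RPMI/B27, with 11.3, 10.6, 10.1 and 13.1 in RPMI_glcM/B27 and 10.8, 8.38, 12.3 and 13.4 in HPLM/B27. Every Day 30 library was above every Day 16 library. The log2 fold changes were 0.94 (adjusted p = 0.000542), 0.67 (adjusted p = 0.00403) and 0.65 (adjusted p = 0.00518), each SE 0.15. With TPM as deposited they were 0.64, 0.43 and 0.34, and only the first passed (adjusted p = 0.0145).

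**Figure D2:**
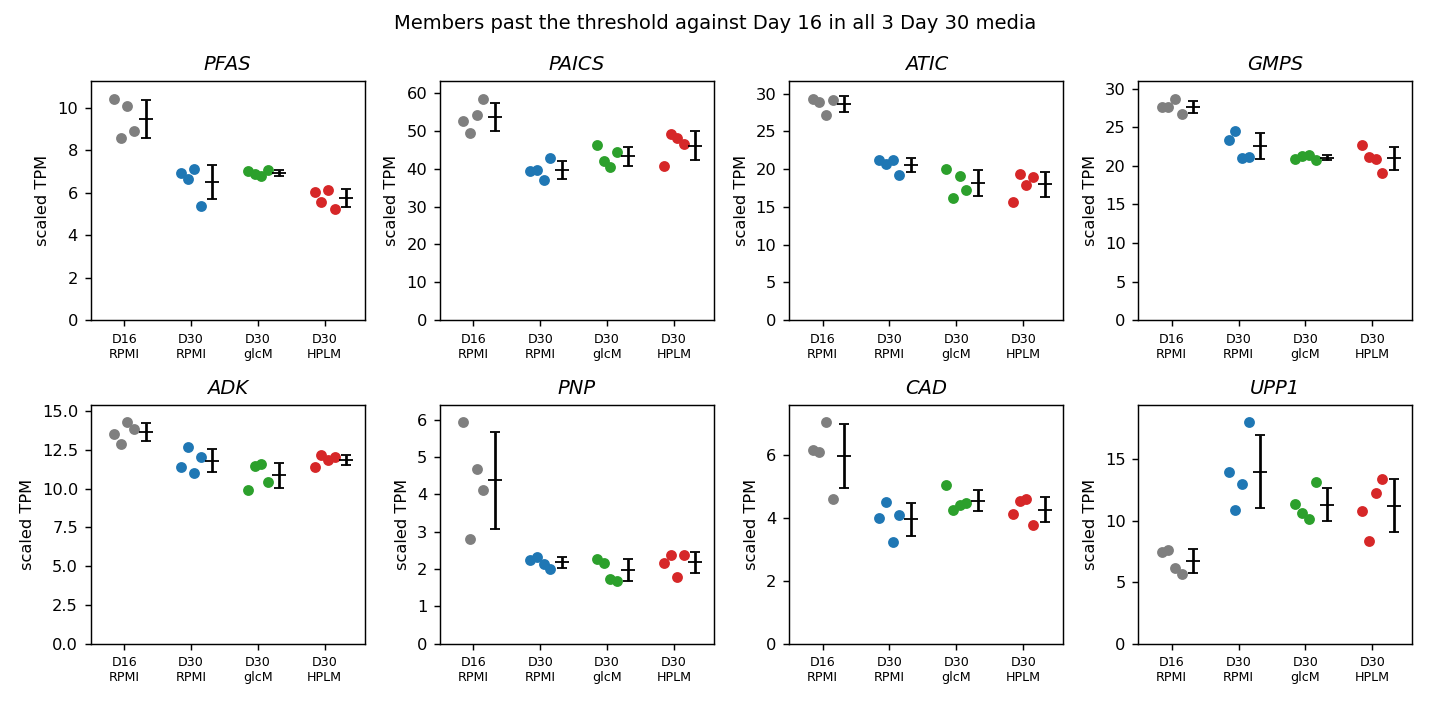
Scaled TPM of the 8 members past the threshold against Day 16 in all 3 Day 30 media. Each point is 1 library, bars give the mean and SD of 4 libraries, and axes start at 0. PFAS, PAICS, ATIC, GMPS, ADK and PNP have their Day 16 points above all later points, CAD has 1 Day 16 point among the later ones, and UPP1 has its Day 16 points under all later points.

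In the pentose phosphate pathway, PGD and TKT fell in RPMI/B27 and RPE did not pass there. PGD, the second dehydrogenase of the oxidative branch, held 136, 122, 142 and 122 scaled TPM at Day 16 and 102.2, 100.02, 111 and 95.04 in RPMI/B27, with no overlap, and fell by 0.35 ± 0.08 (SE) on the log2 scale (adjusted p = 0.00468). In HPLM/B27 its log2 fold change of -0.19 did not pass (adjusted p = 0.0816), but PGD passed there without HPLM/B27 replicate 1 (-0.23, adjusted p = 0.0496), with the replicate block (adjusted p = 0.0417), with TPM as deposited (-0.54, adjusted p = 0.0233) and with the rescaling without abundant RNAs (-0.32, adjusted p = 0.0310). TKT, the transketolase of the non-oxidative branch, held 9.47, 10.8, 9.51 and 9.75 scaled TPM at Day 16, 7.66, 8.19, 7.21 and 7.98 in RPMI/B27, and 7.46, 8.12, 7.70 and 7.001 in HPLM/B27. It fell by 0.31 (adjusted p = 0.0135) and 0.34 (adjusted p = 0.00487) there, SE 0.08, and in RPMI_glcM/B27 its log2 fold change was -0.10 (adjusted p = 0.404). PGLS, RPIA and TALDO1 did not pass in any comparison. PGLS, the lactonase, had 15 to 47 reads and means of 4.07, 3.501, 4.13 and 3.28 scaled TPM.

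The ectonucleotidase NT5E, the cytosolic nucleotidase NT5C2 and the diphosphate kinases NME1 and NME2 did not pass in any comparison. NT5C2 had means of 29.9, 31.1, 26.02 and 26.6 scaled TPM and NT5E of 1.00, 1.34, 1.21 and 1.04. NME1 with 2 to 16 reads and NME2 with 0 to 11 are uncertain, since the genes lie next to each other, are alike in sequence and are joined in a readthrough transcript. Leaving out Day 16 replicate 2, where NME1 had 2 reads, gave NME1 a call in RPMI_glcM/B27 (log2 fold change -0.80, adjusted p = 0.0477).

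Cell cycle genes and markers of other cell types also differed from Day 16. Of a list of 30 cell cycle genes, 9, 17 and 14 were lower at Day 30 in the standard, the RPMI_glcM/B27 and the HPLM/B27 wells. In the same order 0, 1 and 1 were higher, and the median log2 fold changes were -0.48, -0.76 and -0.60. Their summed level was 849 to 899 scaled TPM at Day 16, 580 to 662 in RPMI/B27, 501 to 570 in RPMI_glcM/B27 and 410 to 754 in HPLM/B27. The summed level of 10 cardiomyocyte markers was 9111 to 12786 scaled TPM at Day 16 and 10562.5 to 20571, 13388 to 15990 and 13948 to 17673 in the 3 media. Of these 10 markers, 4, 5 and 4 were higher than at Day 16 and 2, 1 and 2 lower. Of 6 hepatic endoderm markers, 4, 5 and 5 were lower and 1 was higher in each medium, and their summed level at Day 16 was 311 to 638 scaled TPM. Of 6 fibroblast markers tested, 2, 5 and 4 were lower and 1, 1 and 0 higher, from a summed 228 to 328 at Day 16. The Day 30 sums of both lists are given with the media. KDR was lower in all 3 media, with log2 fold changes of -0.97, -0.93 and -0.52. Without both RPMI/B27 libraries of highest RNR1, 6 members fell in that medium, and GMPS (adjusted p = 0.0606), CAD (adjusted p = 0.0638), TKT (adjusted p = 0.0732) and ADK no longer passed. The part of these lists in the falls of PFAS, PAICS, ATIC, GMPS and CAD was not tested.

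The next comparisons ask how the Day 30 media differ. Against standard RPMI/B27, ADSS1, AMPD3 and RPE were higher in both media of 5 mM glucose, by 1.23 to 1.57 fold on the scale of scaled TPM + 1. In RPMI_glcM/B27, 4 members of 37 were higher and 1 lower, where 6.49% of all genes tested were higher and 5.66% lower. In HPLM/B27, 4 were higher and 0 lower (limma), against 7.49% and 5.56% of all genes. At an unadjusted p under 0.05, 6 were higher and 3 lower there, beside 4330 of 16038 genes in either direction. With limma-voom 4 were called higher and 1 lower, beside 1361 and 1109 of 15420 genes. These shares are not far from the background, and the median log2 fold change of the members was 0.06 and -0.00, beside -0.00 and -0.01 over all genes. With TPM as deposited, 1 member passed in RPMI_glcM/B27 (ADSS1) and 0 in HPLM/B27, against 2.2% and 2.41% of all genes. At an unadjusted p under 0.05 deposited TPM gave 5 higher and 1 lower, and 3 higher and 1 lower. In either direction, 2408 and 2447 of 16122 genes were under that p. The 2 RPMI comparisons share the Day 30 RPMI/B27 libraries.

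ADSS1, the adenylosuccinate synthase of heart and skeletal muscle, showed this most clearly. It held 13.4, 15.4, 15.5 and 12.6 scaled TPM at Day 16, 14.8, 12.7, 13.3 and 15.4 in Day 30 RPMI/B27, with 19.9, 23.7, 18.7 and 23.9 in RPMI_glcM/B27 and 21.5, 17.9, 19.9 and 21.4 in HPLM/B27. All 8 libraries of the 5 mM media were above all 8 RPMI/B27 libraries of either day. Against Day 30 RPMI/B27 the log2 fold change was 0.58 ± 0.10 (SE, adjusted p = 0.00179) in RPMI_glcM/B27 and 0.49 ± 0.10 (adjusted p = 0.00412) in HPLM/B27. Against Day 16 it was 0.57 (adjusted p = 0.000562) and 0.48 (adjusted p = 0.00211), whereas in RPMI/B27 it was -0.02 (adjusted p = 0.938). ADSS1 passed in RPMI_glcM/B27 in all 10 other settings and without each library in turn. In HPLM/B27 it passed in 9 of 10, deposited TPM being the exception (0.48, adjusted p = 0.136).

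AMPD3 deaminates AMP to IMP, the opposite arm of the purine nucleotide cycle. It held 1.43, 2.42, 1.68 and 1.57 scaled TPM at Day 16, 1.80, 2.05, 1.10 and 1.89 in Day 30 RPMI/B27, with 3.25, 3.57, 3.09 and 2.99 in RPMI_glcM/B27 and 3.70, 3.17, 2.63 and 2.72 in HPLM/B27, from 35 to 88 reads. Again all libraries of the 5 mM media were above all of RPMI/B27. Against Day 30 RPMI/B27 the log2 fold changes were 0.65 ± 0.14 (SE, adjusted p = 0.00864) and 0.59 ± 0.14 (adjusted p = 0.0138). AMPD3 was called in 7 of 9 and 5 of 9 other settings and without each library in turn. With TPM as deposited, AMPD3 did not pass in either medium (adjusted p = 0.108 and 0.199). In HPLM/B27 AMPD3 also failed with the rescaling without abundant RNAs and with only both groups in the fit. Its isozyme AMPD2 held 5.54, 5.997, 5.01 and 5.92 scaled TPM at Day 16 and 4.92, 3.88, 2.73 and 3.54 in RPMI_glcM/B27, where it fell by 0.49 ± 0.12 (SE) on the log2 scale against Day 16 (adjusted p = 0.00869). In RPMI/B27 and HPLM/B27 its log2 fold changes against Day 16 were -0.27 (adjusted p = 0.161) and -0.28 (adjusted p = 0.113). ADSL, the third enzyme of the cycle, did not pass in any comparison.

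Isozyme shares, given as a description, followed these levels. ADSS1 made up 50.3 ± 3.17% (SD, n = 4) of the summed ADSS1 and ADSS2 level at Day 16, 50.8 ± 3.31% in Day 30 RPMI/B27, then 62.8 ± 2.27% with RPMI_glcM/B27 and 60.8 ± 4.60% with HPLM/B27. AMPD2 made up 76.2 ± 3.91% of AMPD2 and AMPD3 at Day 16, 72.6 ± 5.84% in RPMI/B27, then 53.4 ± 5.50% with RPMI_glcM/B27 and 59.3 ± 5.34% with HPLM/B27. In both pairs, the libraries of the 5 mM media did not overlap with those of RPMI/B27 of either day. PRPS1 made up 92.7 ± 1.45%, 93.4 ± 3.14%, 96.5 ± 0.624% and 95.8 ± 1.13% of PRPS1 and PRPS2 in the same order, with overlap among the Day 30 media.

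**Figure D3:**
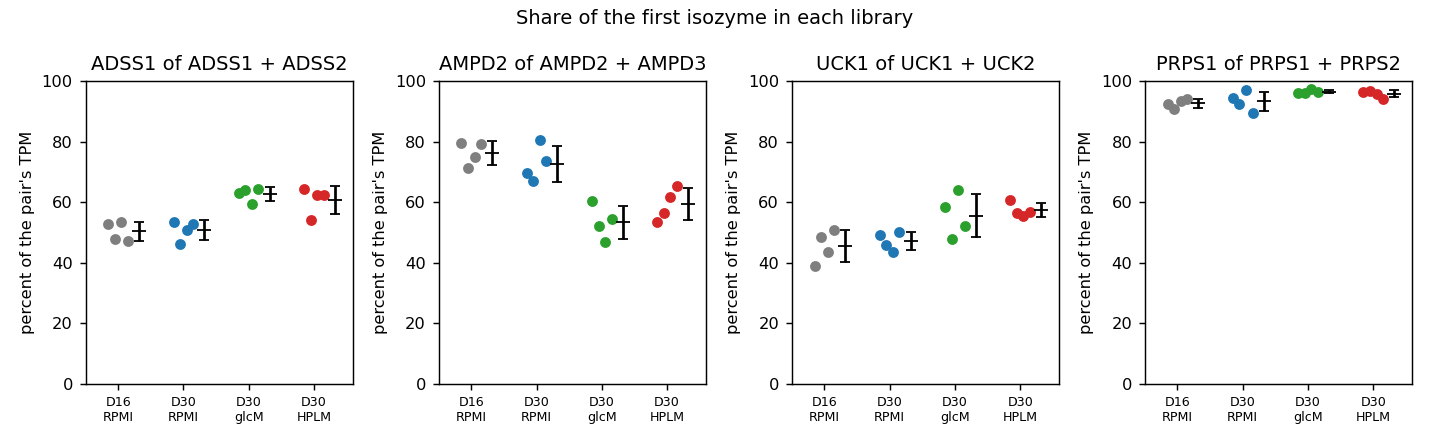
Percent of the summed scaled TPM of a pair of isozymes that the first holds, in each library, for ADSS1 of ADSS1 and ADSS2, AMPD2 of AMPD2 and AMPD3, UCK1 of UCK1 and UCK2, and PRPS1 of PRPS1 and PRPS2. Points are libraries, bars the mean and SD of 4, and the axis runs from 0 to 100%. The ADSS1 share is 54.0% or more in every library of the 5 mM media and 53.4% or less in every RPMI/B27 library, and the AMPD2 share is 65.4% or less against 67.0% or more.

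RPE, which turns ribulose phosphate into xylulose phosphate for the non-oxidative pentose branch, was the other member higher in both 5 mM media. It held 18.8, 17.6, 17.4 and 18.6 scaled TPM at Day 16, 18.8, 17.9, 17.1 and 17.5 in Day 30 RPMI/B27, with 20.7, 25.4, 22.7 and 21.1 in RPMI_glcM/B27 and 19.6, 22.8, 24.2 and 22.1 in HPLM/B27. The lowest HPLM/B27 library was close to the highest RPMI/B27 library, and no values overlapped. Against Day 30 RPMI/B27 the log2 fold changes were 0.31 ± 0.07 (SE, adjusted p = 0.0137) and 0.30 ± 0.07 (adjusted p = 0.0168). The second was lost without HPLM/B27 replicate 3 (0.25, adjusted p = 0.0582). Each was called in 6 of 10 other settings. Both failed with TPM as deposited, with the rescaling without abundant RNAs and with only both groups in the fit. They also failed without both RPMI/B27 libraries of highest RNR1. Against Day 16, RPE was higher in HPLM/B27 by 0.27 (adjusted p = 0.0133), which turned to -0.061 with TPM as deposited (adjusted p = 0.813). PGD was higher in RPMI_glcM/B27, at 133, 114, 120.4 and 119 scaled TPM, than in RPMI/B27 (0.25 ± 0.08, adjusted p = 0.0429), and this was lost without any of the 7 libraries other than RPMI/B27 replicate 3 (adjusted p 0.0529 to 0.121).

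The stretches before the start sites of ADSS1 (spanning chr14:104724229-104747325) and RPE (chr2:210002638-210022260) are shown because these genes, with AMPD3, differed between the media in the same way. They end where the first exon of any GENCODE v44 transcript of the gene begins. Both are from the RefSeq table (GRCh38.p14), plus strand, and capitals mark GGGCGG on either strand in ADSS1 and TGACNNNGC in RPE.
ADSS1, chr14:104723979-104724173: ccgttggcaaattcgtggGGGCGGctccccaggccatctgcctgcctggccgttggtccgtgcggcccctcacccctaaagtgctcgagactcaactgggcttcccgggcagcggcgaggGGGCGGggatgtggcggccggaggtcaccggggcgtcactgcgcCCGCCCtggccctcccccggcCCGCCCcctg
RPE, chr2:210002388-210002564: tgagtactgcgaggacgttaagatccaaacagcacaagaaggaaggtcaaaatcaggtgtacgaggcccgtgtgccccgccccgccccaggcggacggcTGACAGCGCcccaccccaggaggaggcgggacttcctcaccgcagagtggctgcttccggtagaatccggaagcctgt
The ADSS1 stretch held 4 matches to GGGCGG and was 74.9% G and C, and the RPE stretch held 1 match to TGACNNNGC and was 62.7%. No match to GGGCGG or TGACNNNGC was found in the window of AMPD3, which has 4 start sites in the table.

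UCK1, which phosphorylates uridine and cytidine, was higher in HPLM/B27 than in Day 30 RPMI/B27. It held 6.44, 7.04, 7.84 and 9.28 scaled TPM at Day 16, 8.62, 7.76, 10.7 and 7.86 in Day 30 RPMI/B27, with 13.7, 9.77, 14.1 and 10.5 in RPMI_glcM/B27 and 16.3, 11.6, 11.1 and 11.9 in HPLM/B27. HPLM/B27 replicate 1 was well above the other 3, and the lowest HPLM/B27 library was above all RPMI/B27 libraries. The log2 fold change against Day 30 RPMI/B27 was 0.49 ± 0.15 (SE, adjusted p = 0.0419) in HPLM/B27 and 0.41 ± 0.15 in RPMI_glcM/B27, which did not pass (adjusted p = 0.088). The call in HPLM/B27 was kept in 6 of 10 other settings and was lost without any of the 7 libraries other than RPMI/B27 replicate 3 (adjusted p 0.0505 to 0.118), and without that replicate UCK1 also passed in RPMI_glcM/B27 (adjusted p = 0.0423). Against Day 16, UCK1 rose in RPMI_glcM/B27 (0.58, adjusted p = 0.0088) and HPLM/B27 (0.66, adjusted p = 0.00397). UCK2, its isozyme, had means of 9.20, 9.93, 9.50 and 9.40 scaled TPM and did not pass.

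The member lower than in RPMI/B27 was PRPS2, in RPMI_glcM/B27, with 1.59, 2.47, 1.05 and 2.30 scaled TPM in Day 30 RPMI/B27 and the values given above in the other media. Its log2 fold change was -0.67 ± 0.19 (SE, adjusted p = 0.0327) in RPMI_glcM/B27 and -0.56 ± 0.19 (adjusted p = 0.068) in HPLM/B27. The first was lost without any of RPMI/B27 replicates 2 and 4 and RPMI_glcM/B27 replicates 3 and 4 (adjusted p 0.0803 to 0.0943), and the second passed without RPMI/B27 replicate 3 (-0.71, adjusted p = 0.0191). PRPS1 stood at -0.38 and -0.39 on that scale (adjusted p = 0.0963 and 0.0821), and without RPMI/B27 replicate 4 it passed in both (-0.53 and -0.54, adjusted p = 0.0132 and 0.0101), as it did with RNR1 as a covariate (-0.46 and -0.48, adjusted p = 0.0354 and 0.0265). In HPLM/B27 it also passed with the replicate block (adjusted p = 0.0489) and limma-voom (-0.44, adjusted p = 0.0421). Without HPLM/B27 replicate 1, PAICS passed as higher in HPLM/B27 (0.27, adjusted p = 0.0262).

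**Figure D4:**
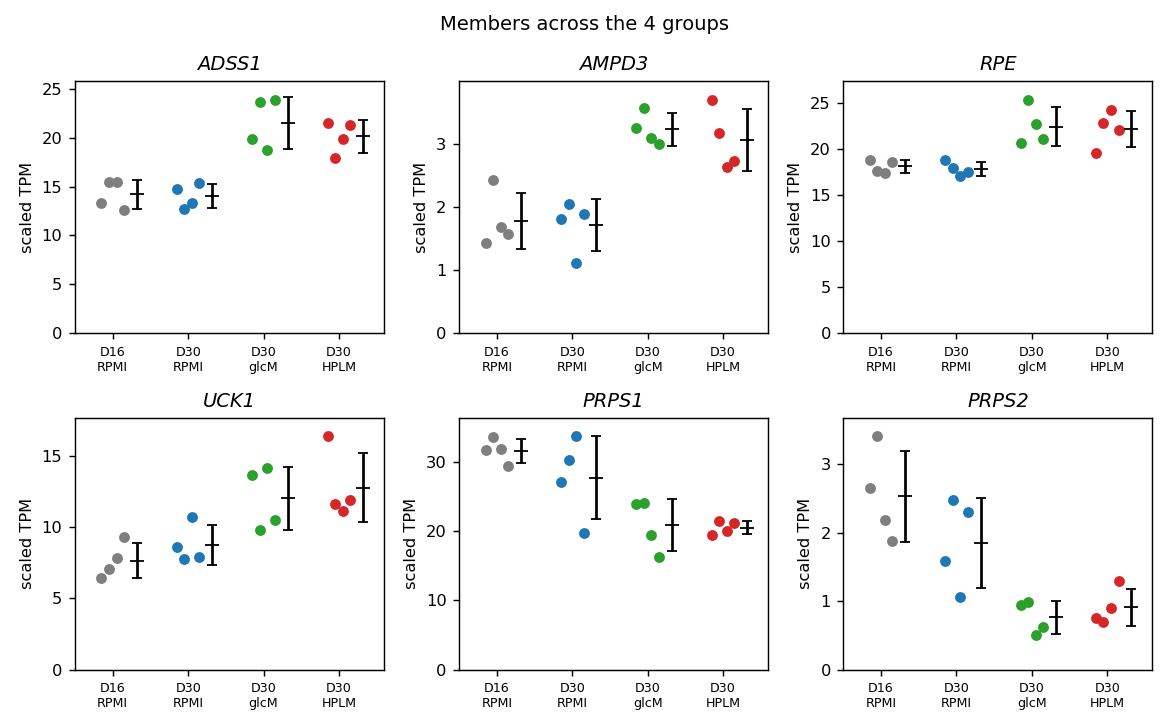
Scaled TPM of ADSS1, AMPD3, RPE, UCK1, PRPS1 and PRPS2 in each library of the 4 groups. Points are libraries, bars the mean and SD of 4, and axes start at 0. ADSS1, AMPD3 and RPE sit higher in the 8 libraries of RPMI_glcM/B27 and HPLM/B27 than in the 8 of RPMI/B27, and PRPS2 sits at 1.30 scaled TPM or less in them.

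Genes of other cell types differed between the media too. The summed level of 6 hepatic endoderm markers was 435 to 471 scaled TPM in Day 30 RPMI/B27, 91.8 to 230 in RPMI_glcM/B27 and 72.8 to 197 in HPLM/B27, and 5 and 6 of the 6 were lower in these media than in RPMI/B27. For 7 fibroblast markers it was 194 to 264, 135 to 155 and 136 to 198, with 4 of the 6 tested lower in both. Over all libraries, DCN did not exceed 1.33 scaled TPM and LUM 8.73. COL1A1 was at 21.5 to 71.0, COL1A2 at 13.2 to 66.0, COL3A1 at 32.7 to 78.3, PDGFRA at 20.5 to 67.4 and POSTN at 22.6 to 65.4. The part of these lists in the differences of ADSS1, AMPD3, RPE, UCK1 and PRPS2 was not tested. Both RPMI/B27 libraries of highest RNR1 fall in the reference group, though each 5 mM medium also had libraries of raised RNR1. Without them, the higher members were ADSS1 alone in both media, while PRPS1 and PRPS2 were lower in RPMI_glcM/B27 and PRPS1 in HPLM/B27. AMPD3 then stood at 0.53 and 0.46 on the log2 scale (adjusted p = 0.0520 and 0.0706) and RPE at 0.27 and 0.25 (adjusted p = 0.0855 and 0.0930).

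The last comparison asks what HPLM adds when the glucose is the same. Between HPLM/B27 and RPMI_glcM/B27, 0 of the 37 members passed (limma), where 1.6% of all genes tested passed in either direction. At an unadjusted p under 0.05 there were 4, all lower in HPLM/B27, beside 2216 of all 16038 genes in either direction. With limma-voom on recovered reads 0 of 35 members passed too, and 3 were under that p, beside 2050 of 15420 genes. The members' median log2 fold change was -0.01, beside 0.00 over all genes, and single values ran from -0.44 to 0.21. The 95% interval of the log2 fold change lay within -1 and 1 for 36 of the 37 members and within -0.5 and 0.5 for 30, and of the 26 members with a mean of at least 5 scaled TPM for 26 and 23. The distance from the estimate to an end of its interval had a median of 0.28 over the members.

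The members nearest to the threshold came from 3 roles. TKT had means of 9.20 ± 1.05 (SD, n = 4) scaled TPM in RPMI_glcM/B27 and 7.57 ± 0.468 in HPLM/B27, a log2 fold change of -0.25 with an interval of -0.42 to -0.08 (adjusted p = 0.156). PFAS had 6.93 ± 0.143 and 5.74 ± 0.420, or -0.24 with an interval of -0.42 to -0.05 (adjusted p = 0.222), and its libraries did not overlap between the media. RPIA, the isomerase that makes ribose phosphate, held 9.50, 6.42, 8.22 and 7.43 scaled TPM in RPMI_glcM/B27 and 7.87, 5.38, 5.47 and 4.09 in HPLM/B27 (-0.42, interval -0.78 to -0.07, adjusted p = 0.247). DHODH, the mitochondrial step of pyrimidine synthesis, held 3.83, 4.07, 4.75 and 4.24 and 3.27, 3.42, 3.07 and 3.83 (-0.25, adjusted p = 0.358). The enzymes that use the bases and nucleosides of HPLM did not stand out, HPRT1 at 0.08 (interval -0.13 to 0.30), UCK1 at 0.08 (-0.24 to 0.40), UCK2 at -0.01 (-0.32 to 0.29) and UPP1 at -0.02 (-0.35 to 0.30).

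**Figure D5:**
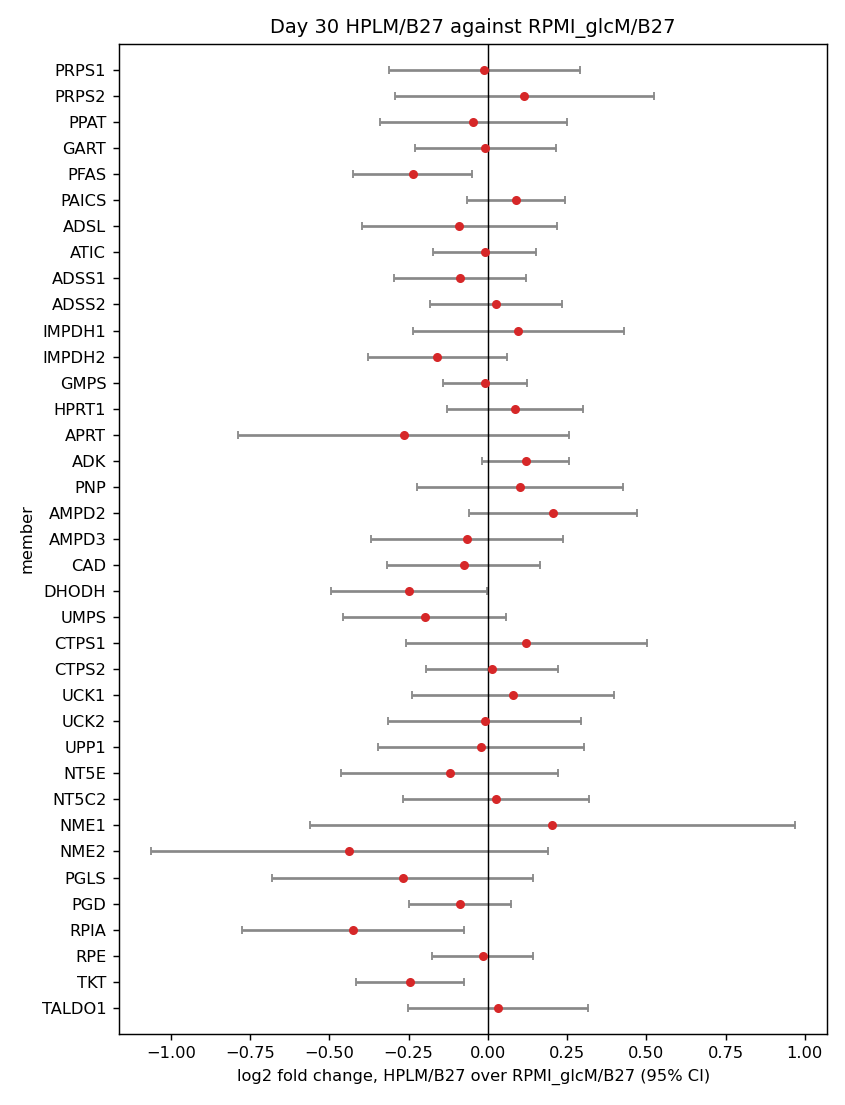
Log2 fold change of Day 30 HPLM/B27 over Day 30 RPMI_glcM/B27 for the 37 members tested, on the log2(scaled TPM + 1) scale. Points are limma estimates and bars their 95% confidence intervals. The points run from -0.44 for NME2 to 0.21 for AMPD2, the intervals of PFAS, DHODH, RPIA and TKT lie under 0, and none of the 37 passed after adjustment over all genes.

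A further list of 60 pathway genes held further enzymes and transporters of nucleotides, folate and pentose phosphates, of which 47 were tested. Relative to Day 16, 4 were higher and 4 lower in RPMI/B27, while RPMI_glcM/B27 had 6 and 11 and HPLM/B27 had 7 and 8. The shares of all genes given above, 8.82% and 8.74%, 14.1% and 13.6%, and 13.4% and 11.8%, are the background of these counts, and those in RPMI/B27 were close to it. Compared with Day 30 RPMI/B27, RPMI_glcM/B27 had 3 higher and 2 lower, and HPLM/B27 had 5 and 2, beside 6.49% and 5.66%, and 7.49% and 5.56%, of all genes. Between HPLM/B27 and RPMI_glcM/B27, 0 of the 47 passed in either direction, beside 1.6% of all genes. The nucleoside transporters SLC29A1 and SLC28A1 led the rises from Day 16. SLC29A1, the equilibrative transporter of the plasma membrane, rose from 6.69 ± 1.06 (SD, n = 4) scaled TPM to 11.7 ± 2.94, 19.96 ± 2.67 and 15.7 ± 1.80, or by 0.71, 1.45 and 1.12 on the log2 scale (adjusted p = 0.00566, 9.18e-06 and 9.22e-05). It was also higher in RPMI_glcM/B27 than in Day 30 RPMI/B27 (0.74, adjusted p = 0.0072), whereas in HPLM/B27 this difference was 0.42 (adjusted p = 0.0964). SLC28A1, a sodium-coupled transporter, rose from 1.03 ± 0.250 to 2.503 ± 0.527, 2.72 ± 0.594 and 3.21 ± 0.444.

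SHMT2 and MTHFD2, folate enzymes of mitochondria, were higher in both 5 mM media than in Day 30 RPMI/B27, and MTHFD1L, another, stood at 0.049 and 0.0046 on the log2 scale (adjusted p = 0.817 and 0.985). SHMT2 had a mean of 8.11 ± 1.29 (SD, n = 4) scaled TPM in Day 30 RPMI/B27 and 15.5 ± 0.898 in HPLM/B27, a log2 fold change of 0.87 (adjusted p = 0.00178). In RPMI_glcM/B27 its log2 fold change was 0.50 (adjusted p = 0.0439). MTHFD2 had 8.25 ± 2.06 in RPMI/B27, 12.2 ± 2.34 in RPMI_glcM/B27 (0.52, adjusted p = 0.0448) and 14.0 ± 2.27 in HPLM/B27 (0.71, adjusted p = 0.00806). Both had been lower in Day 30 RPMI/B27 than at Day 16, by 0.55 (adjusted p = 0.0207) and 0.61 (adjusted p = 0.0145) on the log2 scale. XDH, which oxidises hypoxanthine to uric acid, was lower in HPLM/B27, at 2.26 ± 0.393, than in Day 30 RPMI/B27, at 4.31 ± 0.896 (-0.69, adjusted p = 0.0136) and than at Day 16 (-0.61, adjusted p = 0.0146). RRM1, the large subunit of ribonucleotide reductase, was lower in RPMI_glcM/B27 than in RPMI/B27, at 23.9 ± 0.888 against 33.7 ± 4.35 (-0.47, adjusted p = 0.0112), as was RRM2B (-0.23, adjusted p = 0.0447). Also among the largest changes were falls of ADA and GMPR from Day 16 in RPMI_glcM/B27 (-0.70 and -0.69, adjusted p = 0.0183 and 0.0427), of TK1 from Day 16 in HPLM/B27 (-0.69, adjusted p = 0.0121), and of H6PD in HPLM/B27 against RPMI/B27 (-0.30, adjusted p = 0.0217).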

How the data were processed

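Total RNA of 16 wells was sequenced on a NovaSeq after library preparation with a stranded SMARTer kit for total RNA (Takara), per the labels and the study's methods. The submitters' processing notes name STAR 2.5.3a, featureCounts 2.0.3, R 4.1.3 and hg38, and the authors tested with DESeq2. The authors deposited TPM for 43388 gene symbols, each library summing to 1000000. The annotation, gene lengths and TPM tool are not given in the sources used here.

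TPM were divided by median-of-ratios factors from the 17539 genes above 0 in every library. Genes whose mean reached 1 scaled TPM (16038) were tested on log2(scaled TPM + 1). The tool was limma 3.58.1 under R 4.3.3 (lmFit, eBayes with a trend, two-sided) over all 16 libraries, for 6 comparisons, with Benjamini-Hochberg adjustment over all genes of a comparison and a threshold of 0.05. Fold changes on this scale understate those of low genes. Whole reads were recovered by comparing each gene's TPM across libraries (31044 of 31047 genes above 0), for depth and for limma-voom on the 15420 genes averaging 10 reads or more, of which 35 are members. Intervals are limma's, at 95%. The steps were tested on simulated data.

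Alternatives were TPM as deposited, TPM rescaled without 66 mitochondrial, ribosomal, 7SK and 7SL genes, a pseudocount of 0.1, a test of every gene above 0 or of those reaching 5 scaled TPM, only the 2 groups compared, a replicate block, limma-voom, RNR1 as a covariate and each library left out. Leaving out both Day 30 RPMI/B27 libraries of highest RNR1 was added after seeing the data. The members, their roles and the lists of other genes were chosen with earlier results of these data known. All members are named, and of the 60 further pathway genes the 2 largest changes past the threshold in each direction of a comparison. Python 3.11.15 (pandas 2.3.3, numpy 2.4.6, scipy 1.17.1) served for tables, and matplotlib 3.10.9 for plots.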

Additional observations from a re-analysis of the deposited data

Results flagged for a closer look

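In 148 groups of 4 libraries of a member, 11 held a highest or lowest library far from the other 3, where chance flags about 5% of groups. In Day 30 HPLM/B27, GART was low in replicate 3 (6.38 scaled TPM, the others 8.83 to 9.32), CTPS1 was low in replicate 3 (5.21, the others 6.86 to 7.10) and NT5E was high in replicate 3 (1.57 from 31 reads, the others 0.817 to 0.878). Replicate 1 of that medium was high for IMPDH1 (10.3, the others 6.67 to 7.01), UCK1 (16.3, the others 11.1 to 11.9) and UCK2 (10.6, the others 8.93 to 9.08), and replicate 4 for AMPD2 (5.15, the others 4.10 to 4.26). In Day 30 RPMI/B27, CTPS1 was high in replicate 3 (8.65, the others 5.12 to 5.47) and NME1 low in replicate 4 (0.987 from 4 reads, the others 2.07 to 2.13). At Day 16, replicate 2 was low for NT5C2 (22.6, the others 32.0 to 32.8) and for NME1 (0.365 from 2 reads, the others 2.92 to 3.36). The cause of these values was not tested.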

How the results depend on the processing

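Of 51 calls of a member in 5 comparisons, 23 were made in every other setting in which the member was tested and 40 with each library left out in turn. With TPM as deposited 20 calls were lost and 14 gained, and 2 changed sign without passing, HPRT1 (-0.035) and RPE (-0.061) in HPLM/B27 against Day 16. The 5 calls of RPMI_glcM/B27 against Day 30 RPMI/B27 became 1 with TPM as deposited, 2 with the rescaling without abundant RNAs, 3 with all genes above 0, 3 with genes of at least 5 scaled TPM (fewer members tested), 2 with only both groups in the fit, and 3 without RPMI/B27 replicates 3 and 4, which was chosen after seeing the data. The 4 calls of HPLM/B27 against Day 30 RPMI/B27 became 0, 2, 1 and 2 with TPM as deposited, that rescaling, only both groups and without those 2 libraries. Leaving out 1 library at a time gave 9 to 11 calls in RPMI/B27, 14 to 16 in RPMI_glcM/B27 and 12 to 16 in HPLM/B27 against Day 16, 3 to 6 and 2 to 5 for these media against Day 30 RPMI/B27, and 0 for HPLM/B27 against RPMI_glcM/B27. Calls over all genes were counted only with scaled TPM, TPM as deposited and limma-voom. In the other settings, the replicate block below among them, a change in members called cannot be told from a change over all genes. The cause of these changes was not tested, beyond the fewer samples or genes that some settings have.

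With the replicate number as a block, the 6 comparisons gave 9, 15, 15, 5, 5 and 0 calls. Same-numbered libraries did not deviate together beyond a correlation of -0.07 to 0.23, over 0.1 in 6 of 24 pairs, so the numbers were not read as a pairing.

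Depth limits the members of few reads, PRPS2, NME1, NME2 and AMPD1 among them. All libraries come from 1 cell line, and transcript levels say nothing of enzyme activity or of nucleotide pools.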
